A study of Mus musculus with 8 samples.

Results

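The 39 protein-coding mouse Hox genes were examined as markers of body position in RNA from the posterior palatal shelves of E14.5 embryos. They were taken from a table of 55536 genes, 21963 of them protein-coding, as every protein-coding gene with a symbol made of Hox, a cluster letter from a to d and a number. The 4 control libraries came from embryos with floxed alleles of both Yap and Taz (Yapfl/fl;Tazfl/fl). The 4 mutant libraries came from embryos of genotype Yapfl/fl;Tazfl/fl;Col2Cre, which add a Cre recombinase driven by Col2a1 regulatory sequence. Both groups therefore carried the floxed alleles, and no group carried Col2Cre alone. In every embryo the left and right shelves, cut behind and medial to the molars before they had elevated, were pooled, so that epithelium and mesenchyme were sequenced together. Values are normalised counts, which are gene reads divided by a size factor for each library. In this bulk tissue, fewer cells of a type and less RNA per cell cannot be told apart.

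Hox genes encode homeodomain transcription factors that lie in 4 clusters, A to D. Genes of paralog groups 1 to 3, at one end of a cluster, are expressed from the hindbrain backwards, and those of groups 9 to 13, at the other end, in the caudal trunk, limbs and genitals. Neural crest of the first pharyngeal arch, which gives rise to most of the palatal mesenchyme, is known as a Hox-free population that uses other homeobox genes such as Barx1, Msx1 and the Dlx family. Hoxa2 is the Hox gene that sets the identity of the second arch, and mice that lack it have a cleft palate.

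All 39 genes carry the stretch that codes for the DNA-contacting part of the homeodomain's recognition helix. Its letters, which allow every codon of tryptophan, phenylalanine, glutamine, asparagine and a pair of arginines, are TGGTTNCANAANNGNNGN. Searched on the coding strand of the GENCODE vM21 transcripts in any frame, 151 of 21901 protein-coding genes (0.689%) hold these letters. The 39 genes had 30 distinct versions of these 18 bases. The stretch is shown for Hoxa2 of the anterior groups, Hoxb4 and Hoxd8, the most abundant member, of the middle groups, and the posterior gene Hoxc13, which had reads in the mutants only. Capitals mark the 18 bases.
Hoxa2: aaagtgTGGTTTCAGAACCGGAGAatgaag
Hoxb4: aagatcTGGTTCCAGAATCGGCGCatgaag
Hoxd8: aaaatcTGGTTCCAGAACAGGAGAatgaaa
Hoxc13: accatcTGGTTCCAGAATCGACGCgtgaaa

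Hox RNA was scarce in every library of both genotypes. The 39 genes together had 157 to 265 reads per library, in libraries of 29025089 to 32437977 reads, or 5.41 to 8.38 CPM when scaled to equal library totals. Reads were found for 30 of the 39 genes in at least 1 library. The 9 genes at 0 in all 8 libraries were Hoxa6, Hoxa9, Hoxa10 and Hoxa11 of cluster A, Hoxb13 of cluster B, Hoxc10 and Hoxc11 of cluster C, and Hoxd11 and Hoxd12 of cluster D. They make up 23.1% of the Hox genes, beside 21.5% of all protein-coding genes. A count of 0 allows up to 3 reads per library, or 2.84 to 3.19 normalised counts, a limit that covers counting error only.

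Of 312 combinations of gene and library, 185 held no read. Only Hoxa2, Hoxb2, Hoxd8 and Hoxd9 had reads in all 8 libraries, and 6 Hox genes had reads in a single library, 2 to 10 of them. The number of Hox genes with reads was 15, 14, 16 and 14 in control replicates 1 to 4, and 14, 18, 18 and 18 in mutant replicates 1 to 4. The test across genes took those that reached 10 normalised counts in 4 or more libraries, as did 6 Hox genes (15.4%), beside 66.3% of protein-coding genes. These were Hoxa2, Hoxa3, Hoxb3, Hoxb4, Hoxd8 and Hoxd9.

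**Figure D1:**
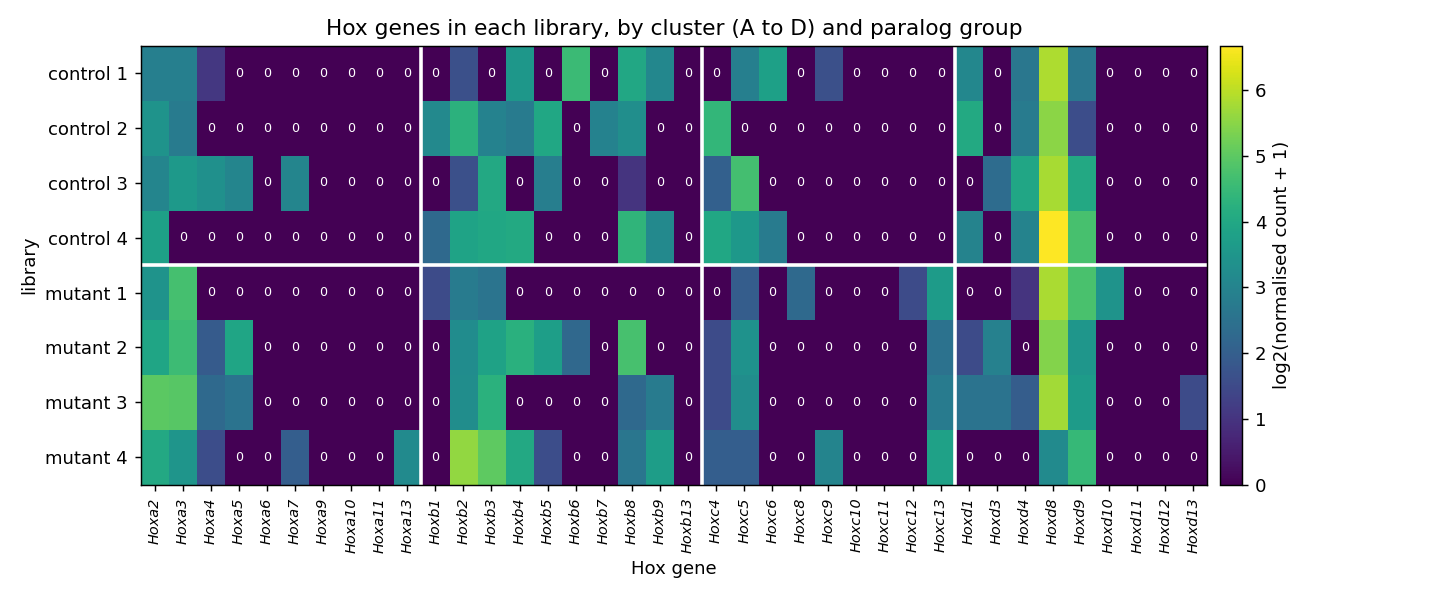
Each row is a library (4 controls above the white line, 4 mutants below it) and each column a Hox gene, for 38 of the 39, ordered by cluster and paralog group; colour is log2(normalised count + 1) and a printed 0 marks no reads. Hoxd8 is the brightest column in 7 of the 8 libraries, and the genes of groups 9 to 13 are at 0 in most libraries, apart from Hoxd9, which has reads in all 8, and Hoxb9 and Hoxc13, which have reads in 4 each.

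Hoxd8, a gene of the trunk, was the most abundant Hox gene in 7 of the 8 libraries. It had 56.4, 44.9, 54.4 and 101.2 normalised counts in the controls and 55.4, 42.6, 53.1 and 8.1 in the mutants. Mutant replicates 1 to 3 lay beside the 3 lower controls, and mutant replicate 4 stood below every other library. The means were 64.2 ± 25.2 (SD, n = 4) and 39.8 ± 21.9 (SD, n = 4), a log2 difference of -0.91 (SE 0.566, adjusted p = 0.795, limma), which did not pass the test. It was -0.28 without mutant replicate 4, and -1.55 with the first number of the library titles as a block. Mutant replicate 4 also had the lowest summed count of the 6 skeletal muscle markers, 7966.2 beside 12744.5 to 28715.9 in the other mutants and 14113.0 to 17113.8 in the controls. Its neuron markers summed to 1399.8, within the range of 800.3 to 4537.2 over the other libraries. Its trunk and limb mesoderm markers summed to 1340.2, beside 815.2 to 1341.1 over the other libraries. Control replicate 4, with the highest Hoxd8 value, had the lowest muscle sum of the controls (14113.0). Mutant replicate 3 had the highest muscle sum of all libraries (28715.9), with Hoxd8 at 53.1. The part of other tissues in the Hoxd8 values was not tested.

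Hoxd9, the next gene on the chromosome, had 5.3, 2.0, 15.4 and 25.5 normalised counts in the controls and 26.3, 10.4, 11.6 and 21.2 in the mutants. The groups overlapped, with a log2 difference of 0.85 (SE 0.748, adjusted p = 0.861, limma). This was 0.30 without control replicate 2 and 1.34 without control replicate 4. It did not share the low value of Hoxd8 in mutant replicate 4. Cluster D as a whole held 39.6% of all Hox reads, beside 29.4% for cluster B, 19.8% for cluster A and 11.2% for cluster C.

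Because Hoxd8 and Hoxd9 are neighbours of unequal abundance, their promoters are shown from RefSeq on GRCm38.p6, as 250 bases before the start of transcription and 50 after it. Capitals mark the dinucleotide CG, of which Hoxd8, at chr2:74704365-74704664 on the plus strand, had 6 and Hoxd9, at chr2:74697513-74697812 on the plus strand, had 20.
Hoxd8: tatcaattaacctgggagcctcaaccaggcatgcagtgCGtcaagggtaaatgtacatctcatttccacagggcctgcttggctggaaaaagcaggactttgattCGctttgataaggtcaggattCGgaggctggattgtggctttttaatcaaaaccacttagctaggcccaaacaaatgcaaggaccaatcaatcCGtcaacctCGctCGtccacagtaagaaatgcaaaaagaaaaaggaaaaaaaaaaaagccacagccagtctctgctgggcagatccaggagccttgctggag
Hoxd9: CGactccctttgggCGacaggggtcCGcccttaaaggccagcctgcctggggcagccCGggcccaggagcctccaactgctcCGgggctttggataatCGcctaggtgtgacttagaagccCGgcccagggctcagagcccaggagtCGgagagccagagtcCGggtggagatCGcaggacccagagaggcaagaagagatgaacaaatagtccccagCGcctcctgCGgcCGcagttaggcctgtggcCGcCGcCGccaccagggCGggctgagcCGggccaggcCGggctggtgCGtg
Promoters were matched for 22 of the 39 Hox genes (24 promoters). Their median was 14.5 CG dinucleotides, from 4 to 45, beside a median of 7.0 over 32851 promoters, of which 34.64% had at least 14.5. Hoxd8, the most abundant Hox gene per length, stood below the Hox median by this measure.

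The anterior genes of groups 1 to 3 were all detected. Hoxa2, the gene of the second arch, had 6.4, 9.8, 7.2 and 12.8 normalised counts in the controls and 9.7, 14.2, 30.9 and 15.2 in the mutants. Mutant replicates 2 to 4 lay above every control, and mutant replicate 1 lay among them. The means were 9.05 ± 2.89 (SD, n = 4) and 17.5 ± 9.25 (SD, n = 4), and the log2 difference of 0.80 (SE 0.578, adjusted p = 0.816, limma) did not pass the test.

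Hoxa3, which patterns the third arch and is needed for the thymus and parathyroid, had 6.4, 5.9, 11.3 and 0 normalised counts in the controls and 25.3, 22.7, 29.9 and 10.1 in the mutants. Mutant replicates 1 to 3 were above every control, and mutant replicate 4 was below control replicate 3. The means were 5.90 ± 4.63 (SD, n = 4) and 22.0 ± 8.47 (SD, n = 4). The log2 difference of 2.10 (SE 0.83) had an unadjusted p of 0.026 and an adjusted p of 0.754 in limma, and was 1.33 without control replicate 4. Hoxa3 was the only 1 of the 6 tested Hox genes with an unadjusted p below 0.05, a level reached by 1093 of 16647 genes (6.57%). Genes on the other strand (5730596B20Rik, Gm29430, Hoxaas2 and Hoxaas3) cover 21.6% of the 50-base runs of Hoxa3. On the same strand, Gm28308 shares 7.27% of them. The strand setting of the counting is not stated, and the part of these genes in the Hoxa3 counts was not tested.

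Hoxb3 had 0, 6.8, 15.4 and 14.7 normalised counts in the controls and 4.9, 13.3, 18.3 and 31.4 in the mutants, with a log2 difference of 1.18 (SE 0.953, adjusted p = 0.839, limma). The groups overlapped, and the difference was 0.26 without control replicate 1. Hoxb2, its neighbour, had 2.1, 18.5, 2.1 and 13.7 in the controls and 5.8, 8.5, 8.7 and 47.5 in the mutants, and was the most abundant Hox gene of mutant replicate 4. Hoxb3os, an antisense transcript in the table, covers 51.4% of the 50-base runs of Hoxb3 and 25.9% of those of Hoxb2. It had 0 to 12.8 normalised counts in the controls and 0 to 16.1 in the mutants. Whether the counting used strand is not stated, so sense and antisense reads of these genes cannot be told apart.

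Hoxb1, which defines a segment of the hindbrain, had 0 to 7.8 in the controls and a single value of 1.9 in the mutants. Hoxd1 had 7.5, 15.6, 0 and 6.9 in the controls and 0, 1.9, 4.8 and 0 in the mutants.

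The middle groups 4 to 8 held 53.2% of Hox reads, with 14 of 15 genes detected. Hoxb4, a gene of the caudal hindbrain and neck, had 10.6, 5.9, 0 and 15.7 normalised counts in the controls and 0, 18, 0 and 15.2 in the mutants. Its means were nearly equal, 8.05 ± 6.69 and 8.30 ± 9.65 (SD, n = 4 each). The log2 difference was -0.53 (SE 1.305, adjusted p = 0.963, limma), and its sign turned to 1.36 with the first number of the library titles as a block and to 0.04 in edgeR.

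Hoxd4 had 5.3, 5.9, 14.4 and 6.9 normalised counts in the controls and 1.0, 0, 2.9 and 0 in the mutants. Every control was above every mutant, and the means were 8.13 ± 4.24 (SD, n = 4) and 0.975 ± 1.37 (SD, n = 4), from 32 and 4 reads. The exact two-sided permutation p was 0.0286, the smallest that 4 against 4 libraries can give. Adjusted over the 21 Hox genes tested in this way, it was 0.3. Among 8859 genes below the test's minimum with a mean of at least 1 in either group, 0.722% had all mutants lower, and 1.82% separated the groups in either direction. Of the 21 Hox genes of this kind, Hoxd4 was the 1 with all mutants lower. With no minimum, limma gave a log2 difference of -2.35 (adjusted p = 0.831). Hoxd3 and the gene model Gm28230 hold 46.8% of the 50-base runs of Hoxd4 on the same strand, so that reads could have been split or left out there. Hoxd3 was at 0 in 3 controls and 2 mutants, with 4.1 in control replicate 3, 6.6 in mutant replicate 2 and 4.8 in mutant replicate 3.

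The other middle genes were seen in some libraries and not in others. Hoxb8 had 14.9, 8.8, 1.0 and 19.6 normalised counts in the controls and 0, 25.6, 3.9 and 5.1 in the mutants. Hoxc5 had 6.4, 0, 24.6 and 10.8 in the controls and 2.9, 9.5, 8.7 and 3.0 in the mutants. Both spanned their whole range within a single genotype. Hoxc4 had 0, 20.5, 3.1 and 14.7 in the controls and 0 to 3.0 in the mutants (exact permutation p = 0.229). Hoxc6, a gene of the forelimb level, had 12.8 and 5.9 in control replicates 1 and 4 and 0 in the other 6 libraries.

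The remaining middle genes, apart from Hoxa4 (given below), were at 0 in at least 4 of the 8 libraries. Hoxb5 had 14.6 and 6.2 in control replicates 2 and 3, and 12.3 and 2.0 in mutant replicates 2 and 4. Hoxb6 had 22.4 in control replicate 1 and 3.8 in mutant replicate 2. Hoxb7 had 6.8 in control replicate 2 only, and Hoxa7 had 7.2 in control replicate 3 and 3.0 in mutant replicate 4. Hoxc8, a gene of the thorax, had 3.9 in mutant replicate 1 only.

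The posterior groups 9 to 13 held 13.6% of Hox reads, with 8 of 16 genes detected. Hoxc13, known for its role in hair, nails and the papillae of the tongue, had 0 reads in all 4 controls and 11.7, 4.7, 5.8 and 13.1 normalised counts in the mutants (8.83 ± 4.19, SD, n = 4). Each mutant library was above every control. The mutants held 36 reads, 12-fold the 3 reads that a count of 0 over the control group allows. That limit leaves out variation between libraries and the counting error of the mutant reads. The exact two-sided permutation p was 0.0286, the smallest possible, and 0.3 when adjusted over the 21 Hox genes tested in this way. All mutants were higher in 1.09% of the 8859 low genes and in 1 of the 21 Hox genes. With no minimum, limma gave a log2 difference of 3.19 with an unadjusted p of 0.000171 and an adjusted p of 0.274, so that it was not called. The difference of means was 13.1 within the libraries whose titles begin with 2057 and 5.25 within those that begin with 3602. No other gene in the table overlaps Hoxc13. The summed count of the 6 epithelial markers was 19022.8 to 26360.0 in the controls and 21255.2 to 37819.3 in the mutants, highest in mutant replicate 2, where Hoxc13 was lowest among the mutants. Its part in the Hoxc13 counts was not tested.

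The remaining posterior genes rested on few libraries. Hoxb9 had 7.5 and 7.9 in control replicates 1 and 4, and 5.8 and 12.1 in mutant replicates 3 and 4. Hoxa13 and Hoxd10, genes of the distal limb and the lumbar cord, had 8.1 in mutant replicate 4 and 9.7 in mutant replicate 1. Hoxc9 had 2.1 in control replicate 1 and 7.1 in mutant replicate 4, and Hoxc12 and Hoxd13 had 1.9 in 1 mutant library each.

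**Figure D2:**
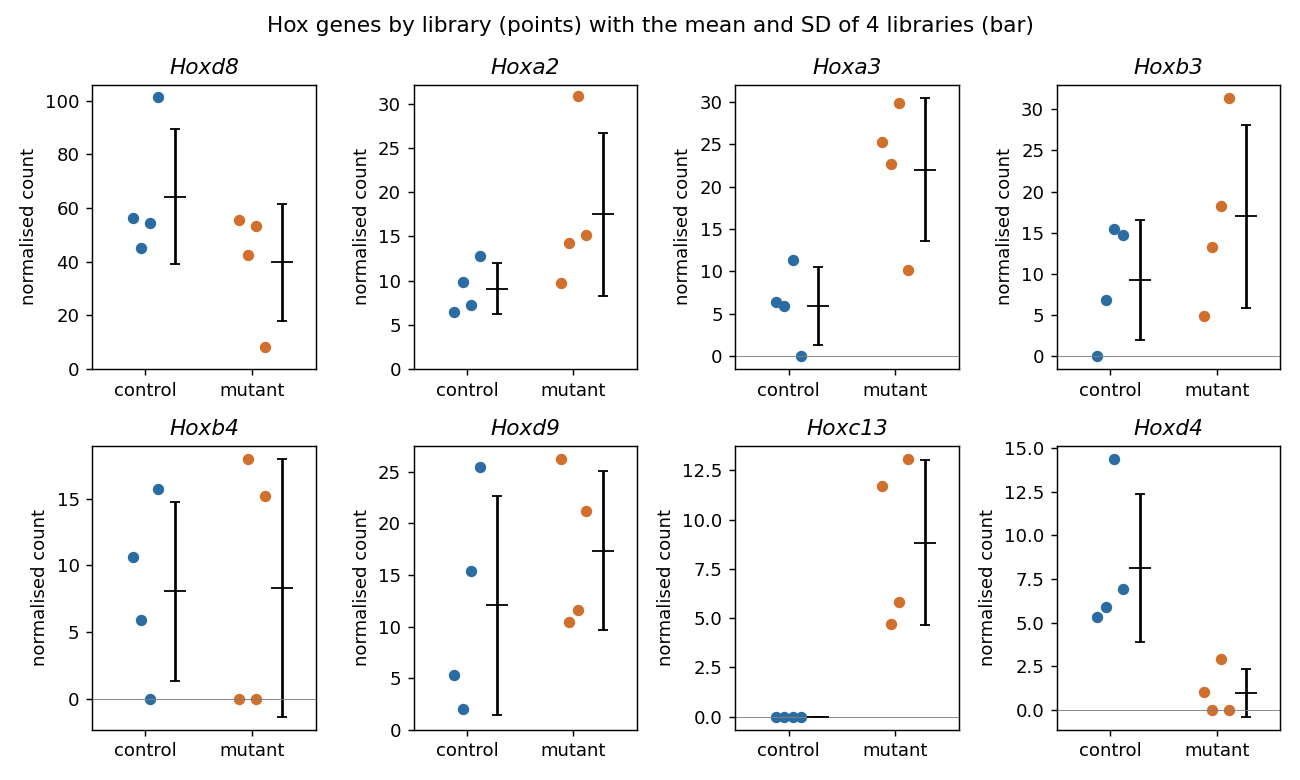
Points are normalised counts of single libraries (4 controls in blue, 4 mutants in orange) for the 6 tested Hox genes and for Hoxc13 and Hoxd4; bars are the mean and SD of 4 libraries and the axes differ between panels. The groups overlap in the 6 tested genes and do not overlap in Hoxc13 (0 in all controls) and Hoxd4 (0 to 2.9 in the mutants).

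No Hox gene passed the test of mutants against controls. Of the 6 tested, 0 had an adjusted p below 0.05 in limma (lowest 0.754, highest 0.963), and 1 had an unadjusted p below 0.05. Over all genes, 4 of 16647 (0.024%) passed. The median log2 difference of the 6 Hox genes was 0.83, with 4 higher and 2 lower in the mutants, beside -0.00015 over all genes tested. A low gene could reach the test's minimum through a single genotype, so this median cannot show a shift of the Hox genes. Hoxa3 reached 10 normalised counts in every mutant but, among the controls, only in replicate 3 (11.3). Hoxd8 reached it in every control and in mutant replicates 1 to 3. Among the 6 tested genes 0 separated the groups without overlap, beside 3.77% of all genes tested. Over the 30 genes with reads, 17 had the higher mean in the mutants and 13 in the controls.

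The summed Hox count was 167.2, 173.8, 186.9 and 260.2 in the controls and 162.3, 226.3, 206.5 and 216.3 in the mutants, 197 ± 42.9 and 203 ± 28.2 (SD, n = 4 each). These totals overlapped throughout. Groups 1 to 3 summed to 45.8 ± 17.6 in the controls and 86.4 ± 28.1 in the mutants, groups 4 to 8 to 135 ± 28.5 and 78.6 ± 38.0, and groups 9 to 13 to 16.4 ± 12.9 and 37.9 ± 21.5 (SD, n = 4 each). In each class at least 1 library of a genotype lay within the range of the other. By cluster, A summed to 13.9, 15.7, 46.2 and 12.8 in the controls and 36.9, 67.2, 74.3 and 47.5 in the mutants, with control replicate 3 above mutant replicate 1. These come from titles with different first numbers. In titles that begin with 3602, cluster A had 46.2 in the control and 67.2 and 74.3 in the mutants, and in those that begin with 2057 it had 15.7 and 12.8 in the controls and 47.5 in the mutant. This comparison was not planned, was made for no other sum, and rests on 1 library of a genotype within each number. Cluster C had 20.5 to 31.4 in the controls and 16.1 to 26.2 in the mutants.

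**Figure D3:**
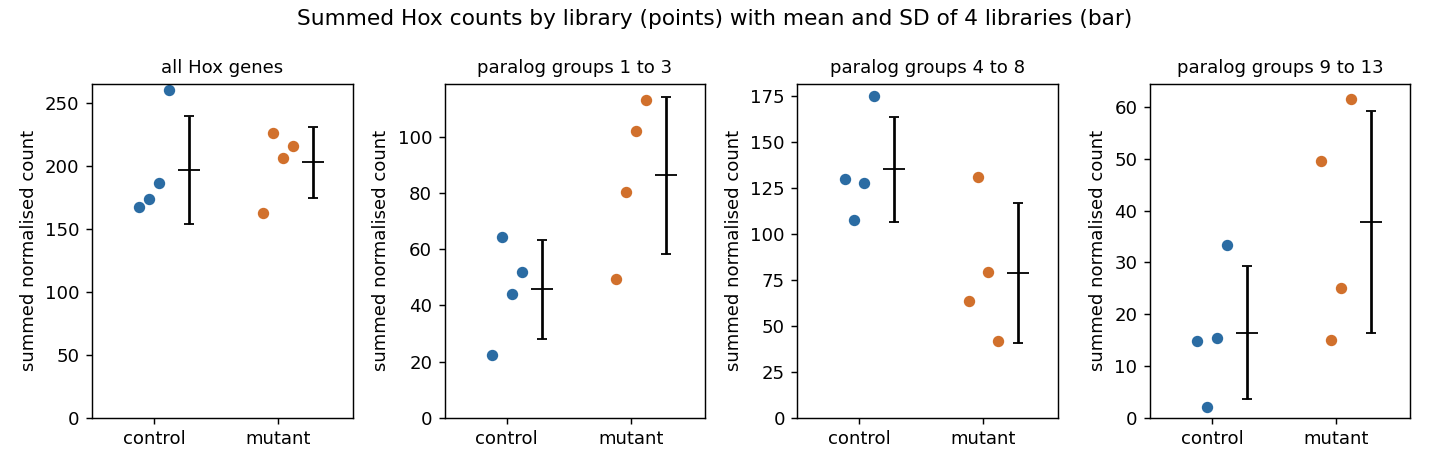
Points are summed normalised counts of single libraries (4 controls in blue, 4 mutants in orange) for all 39 Hox genes and for 3 classes of paralog groups; bars are the mean and SD of 4 libraries. The totals lie between 162.3 and 260.2 in all libraries, and the groups overlap in every panel.

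Per kb of exon, Hox genes lay far below the homeobox genes of the head. Hoxd8 had the highest mean level of the Hox genes, 18.95 normalised counts per kb, followed by Hoxa2 with 7.48, Hoxd9 with 6.89 and Hoxb2 with 3.83. The median of the 39 Hox genes was 0.971 per kb. Of 24 homeobox genes of the head and the first arch, 21 had a level per kb above that of Hoxd8, and their median was 333.1 per kb. Barx1, a gene of first arch mesenchyme, had 8093 per kb, and Meox2, expressed in the palatal mesenchyme, had 3826. Dlx4 and Alx1, at 5.598 and 9.90 per kb, were among those below Hoxd8.

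**Figure D4:**
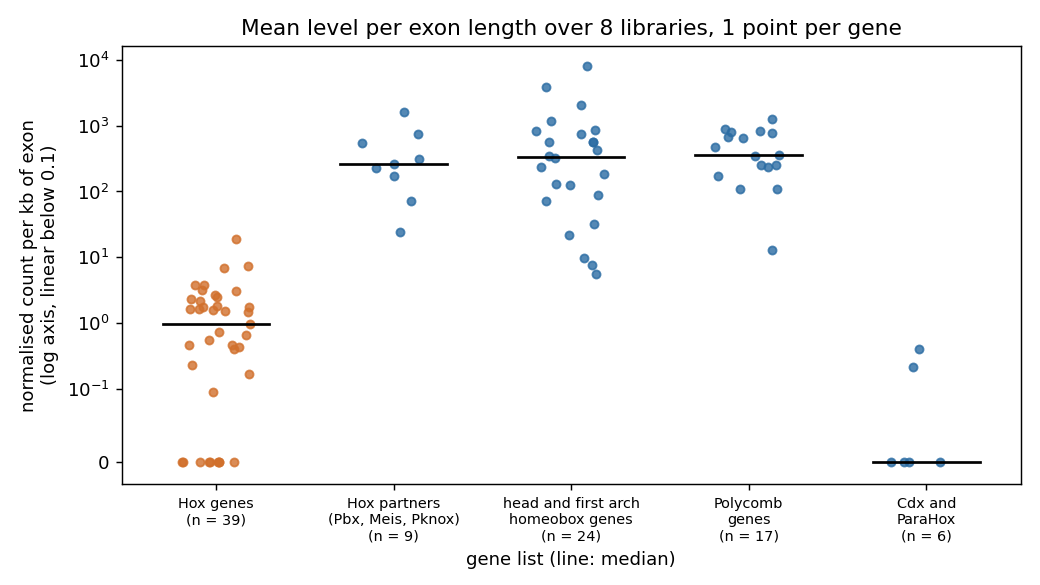
Each point is the mean over 8 libraries of a gene's normalised count per kb of exon, on an axis that is logarithmic above 0.1 and linear below it, with black lines at the medians. Hox genes lie between 0 and 18.95, below most homeobox genes of the head (median 333.1), and 4 of the 6 Cdx and ParaHox genes are at 0.

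Markers of the labelled tissue were read in every library. All 9 markers of palatal mesenchyme and all 6 of epithelium were tested, and the lowest of the 9, Msx1, had 34.0 to 131.6 normalised counts. Osr2, which marks palatal mesenchyme, had 5705.3 to 8246.4 normalised counts over the 8 libraries, and Tbx22, a gene of the posterior palate, had 1033.1 to 1949.1. Epcam, a marker of epithelium, had 2850.4 to 4758.8. Neuron markers summed to 800.3 to 3241.7 in the controls and 1319.1 to 4537.2 in the mutants, with Chat of motor neurons at 0 in 6 libraries. Of 7 genes listed as markers of trunk and limb mesoderm, which expresses Hox genes, 7 had reads and 4 were tested. Whether these 7 genes are specific to that tissue here was not tested. They summed to 815.2 to 1158.4 in the controls and 897.5 to 1341.1 in the mutants, and most of this was Pax1 (559.4 to 1107.3), with 75.3 to 157.5 for Tbx4 of the hindlimb, 59.5 to 250.9 for Nkx3-2 and 0 to 3.9 for Tbx5 of the forelimb. None of the 51 tested genes of the 8 marker lists was called. Endothelial markers had the lower mean in mutants in 6 of 6 genes (median log2 difference -0.24). They summed to 15534.7 to 17094.4 in the controls and 11596.8 to 15208.6 in the mutants, without overlap. Singly, only Pecam1 and Emcn of these genes separated the groups, as did 3.77% of all genes tested. Erythroid markers had the higher mean in 7 of 7 (median 0.29) and epithelial markers in 6 of 6 (median 0.29). The part of these cell types in the Hox counts was not tested.

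The partners of Hox proteins were present in both genotypes. All 9 Pbx, Meis and Pknox genes, whose products bind DNA together with Hox and other homeodomain proteins, were tested, with 5 higher and 4 lower in the mutants and 0 called (median log2 difference 0.02). Pbx2 had 5476.3 to 5734.1 normalised counts in the controls and 5759.3 to 6328.2 in the mutants, a log2 difference of 0.09 (adjusted p = 0.785, limma) without overlap between the groups. Such a lack of overlap was seen in 3.77% of all genes tested.

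Genes that keep Hox clusters silent or active did not pass the test either. All 17 Polycomb genes, which maintain repression of Hox clusters, were tested, with 11 higher, 6 lower and 0 called (median 0.03). Phc2 had 5498.4 to 6255.2 in the controls and 5876.6 to 7201.6 in the mutants (adjusted p = 0.754, limma). All 9 trithorax and H3K27 demethylase genes, which oppose Polycomb, were tested, with 5 higher, 4 lower and 0 called (median 0.01). Of 9 genes that set up Hox expression in the hindbrain, 8 were tested, with 4 in each direction and 0 called. Cyp26b1, which breaks down retinoic acid, had 2084.7 to 2269.1 in the controls and 1363.8 to 2169.5 in the mutants (log2 difference -0.30, adjusted p = 0.754, limma).

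Among the 23 tested homeobox genes of the head and first arch, 10 were higher, 13 lower and 0 called (median -0.02). Dlx3 and Dlx5, which pattern the arches and bone, had the smallest unadjusted p. Dlx3 had 535.5 to 1044.6 in the controls and 426.9 to 540.1 in the mutants, a log2 difference of -0.64 (adjusted p = 0.754, limma). Of the 6 Cdx and ParaHox genes, activators and relatives of Hox genes in the trunk and gut, 4 were at 0 in all libraries. Cdx1 had 3.0 in mutant replicate 4 and Gsx1 had 5.8 in mutant replicate 3, and both were at 0 elsewhere.

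Genes beside and within the clusters were read at their own levels. Of 14 listed neighbours of the clusters, 13 were in the table and 10 were tested, with 5 in each direction and 0 called. Calcoco1, beside cluster C, had 3774.8 to 3852.5 in the controls and 3147.7 to 3795.3 in the mutants (log2 difference -0.15, adjusted p = 0.754, limma). Evx2, the homeobox gene at the posterior end of cluster D, had 5.9 in control replicate 4 and 8.7 and 12.1 in mutant replicates 3 and 4. Of 15 non-coding genes, 8 were at 0 in all libraries, among them Hotair, Hottip and the miRNA genes Mir10a, Mir10b and Mir196b. Halr1, beside the anterior end of cluster A, was the only one tested, with 170.4, 152.3, 296.5 and 205.2 in the controls and 149.8, 303.8, 265.3 and 239.7 in the mutants (log2 difference 0.22, adjusted p = 0.898, limma). Haglr, a non-coding gene between Hoxd1 and Hoxd3 that was singled out after its values were seen, had 0 in all controls and 1.0, 5.7, 7.7 and 5.1 in the mutants. Of the 8859 genes below the test's minimum with a mean of at least 1 in either group, 1.09% had all mutants higher.

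Of the 6 tested Hox genes, 0 separated libraries by the first number of their titles, while 4 of the 21 below the test's minimum did. The title begins with 2057 for control replicates 2 and 4 and mutant replicate 4, with 3602 for control replicate 3 and mutant replicates 2 and 3, with 3606 for control replicate 1 and with 3621 for mutant replicate 1, and what the number stands for is not stated. Hoxa4, Hoxa5 and Hoxd3 were higher in all 3 libraries numbered 3602 than in the other 5, which is 3 of the 21 Hox genes below the test's minimum (14.3%), beside 1.31% of the 8859 genes of that kind. Hoxa5, a gene of the neck and lung, had 7.2, 14.2 and 4.8 in these libraries and 0 in the other 5. Hoxa4 had 9.2, 2.8 and 3.9 in them and 0 to 2.0 elsewhere. Hoxb2 was higher in all 3 libraries numbered 2057 than in the others (1 of 21, beside 1.02%).

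Halr1 was likewise higher in the libraries numbered 3602, at 265.3 to 303.8 beside 149.8 to 239.7, a pattern held by 4.25% of all genes tested. Of the 6 skeletal muscle markers, Myod1, Myog and Actc1 were also higher in all 3, while Ttn, Ckm and Myf5 were not. Alx4, a homeobox gene of the frontonasal mesenchyme, was lower in all 3, with Alx1 and Prrx1 (3.33% of all genes tested were lower in this way). Alx4 had 728 to 1258 in the libraries numbered 3602 and 2647 to 4011 in the others. The part of these tissues in the Hox values was not tested.

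**Figure D5:**
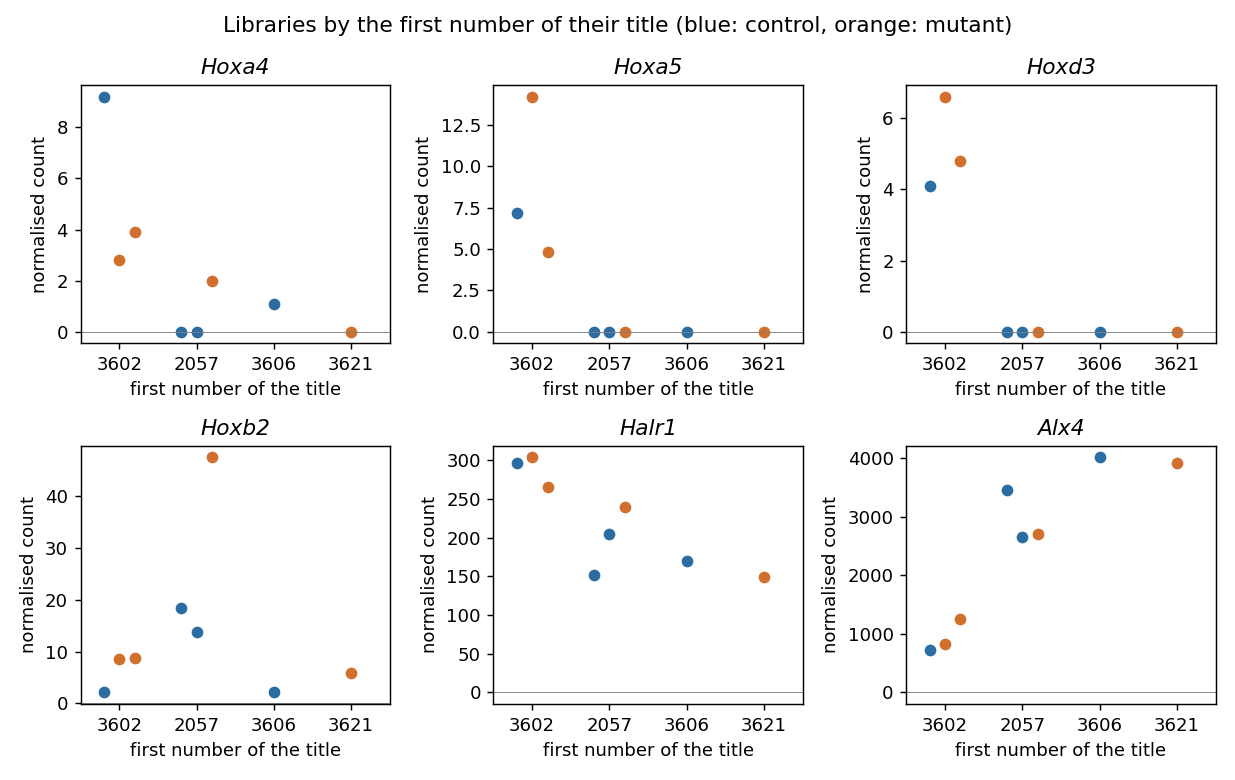
Points are normalised counts of single libraries (blue control, orange mutant), grouped on the x axis by the first number of their title, for 4 Hox genes, the non-coding gene Halr1 and Alx4. Hoxa4, Hoxa5, Hoxd3 and Halr1 are higher and Alx4 is lower in the 3 libraries numbered 3602 than in the other 5, and Hoxb2 is higher in the 3 numbered 2057.

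Reads of most Hox genes could be assigned to a single gene by sequence. Of the 39 genes, 26 shared no run of 50 bases on the same strand with an overlapping gene or another Hox gene, and 13 did. The largest overlap between members was that of Hoxd3 and Hoxd4, with 339 shared runs, followed by Hoxc5 and Hoxc10 with 119. Hoxa2 shared 12.7% of its runs with Gm28308, a gene model that was at 0 in all libraries. Values of genes that share runs, Hoxd3 and Hoxd4 above all, are therefore uncertain.

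Yap1 and Wwtr1 (Taz), the floxed genes, had lower means in the mutants without passing the test. Yap1 had 9094.6 to 10086 in the controls and 8221.2 to 8745 in the mutants, with no overlap between the groups (log2 difference -0.18, adjusted p = 0.751, limma). Wwtr1 had 4448.6 to 5305.2 in the controls and 3649.9 to 4574.3 in the mutants (log2 difference -0.29, adjusted p = 0.751, limma).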

How the data were processed

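RNA was measured in 4 control and 4 mutant libraries, grouped by the genotype label. Replicates were numbered in accession order. The labels do not say that every library is a separate animal, so a p-value here measures only how these samples vary, which may be technical. Per the submitters' processing notes, the tools used were STAR 2.7.2 and a version of DESeq2 that is not stated. How reads were counted, with which strand setting and annotation, is not stated. The starts and ends of all 39 Hox genes equalled GENCODE vM21 on GRCm38. The deposited signal values were normalised counts made by the authors, gene reads divided by a size factor and rounded to 1 decimal. Between 50 and 5000, 100% of values in each library gave whole reads within 0.06 reads. The deposited log2 values, stabilised by the authors, were not used.

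The 16647 genes that reached 10 normalised counts in 4 or more libraries entered limma 3.58.1 (R 4.3.3) as log2 of the normalised count plus 1, with an intensity trend in the variance and genotype as the only term. Tests were two-sided, with Benjamini-Hochberg adjustment over all genes at 0.05. Fold changes of low genes on this scale can be larger or smaller than those from edgeR. The log2 difference of Hoxa3 was 2.10 in limma and 1.89 in edgeR, and that of Hoxb3 was 1.18 and 0.87. That of Hoxd9 was 0.85 and 0.53, that of Hoxd8 -0.91 and -0.69, and that of Hoxb4 -0.53 and 0.04. Hoxa2 went the other way, with 0.80 in limma and 0.94 in edgeR. The 21 Hox genes below that minimum with a mean of 1 or more in either group were tested singly by exact two-sided permutation of the libraries. These p-values are unadjusted except where an adjusted value, by Benjamini-Hochberg over the 21 genes, is given. Exon lengths and transcripts came from GENCODE vM21, promoters from RefSeq. To be named were Hox genes with a mean of 1 or more in either group, Hox genes at 0, and up to 4 genes with the smallest p from each list, of which not all are, and some items are not reported here. The Hox genes and the companion and marker lists were chosen with earlier results of these data known. Alternatives were pseudocounts of 0.5 and 8, no minimum, a minimum mean of 50, scaling by trimmed mean of M-values, the title number as a block, leaving out each library, and the recovered reads in edgeR 4.0.16 and in DESeq2 1.42.0. The limma fit was tried on simulated data.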

Additional observations from a re-analysis of the deposited data

Results flagged for a closer look

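Among 58 groups of 4 libraries, the controls and the mutants for the 27 Hox genes with a mean of at least 1 in either group, the summed Hox count and Halr1, the farthest library stood apart from the other 3 by Dixon's test in 16 groups, of which 15 are given here. In 13 of the 16 a single library had reads beside 3 at 0, where the ratio is at its maximum whatever the count, so the usual chance rate of about 1 in 20 does not apply to them. The exceptions were Hoxa4 in the controls, and Hoxb2 and Hoxb5 in the mutants. Among the controls, replicate 3 stood apart for Hoxa4 (9.2 normalised counts), Hoxa5 (7.2), Hoxa7 (7.2) and Hoxd3 (4.1), replicate 1 for Hoxb6 (22.4) and Hoxc9 (2.1), and replicate 2 for Hoxb7 (6.8). Among the mutants, replicate 4 stood apart for Hoxa7 (3.0), Hoxa13 (8.1), Hoxb2 (47.5) and Hoxc9 (7.1), replicate 1 for Hoxb1 (1.9) and Hoxd10 (9.7), and replicate 2 for Hoxb5 (12.3) and Hoxb6 (3.8). Hoxb2 was the only one of these genes with reads in every library.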

How the results depend on the processing

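Of the Hox genes, 0 were called in the 16 alternatives, and their lowest adjusted p over them was 0.274, for Hoxc13 with no minimum. DESeq2 gave no adjusted p for 5 of the 6 tested genes. Genes of the companion lists were likewise called in 0 of the 16. Over all genes, 4 were called, 28 in DESeq2, 5 in edgeR and 0 to 11 with 1 library left out: 0 without control replicate 2, control replicate 4 or mutant replicate 3, 8 without mutant replicate 4 and 11 without control replicate 3. The number of Hox genes with reads was 27 to 30 with 1 library left out, 26 with a mean of at least 1, and 17 where at least 1 normalised count in at least 4 libraries was asked for. The log2 difference of Hoxb4 turned from -0.53 to 1.36 with the title number as a block, 0.16 without mutant replicate 1 or without mutant replicate 3, 0.041 in edgeR and 0.037 in DESeq2, and was -1.395 to 0.16 with 1 library left out; the cause was not tested. The other 5 tested Hox genes kept their direction in every alternative in which they were tested, but not their size: Hoxd8 was -1.55 to -0.28, Hoxd9 0.30 to 1.34, Hoxa2 0.53 to 1.03, Hoxa3 1.13 to 2.54 and Hoxb3 0.26 to 1.63. The mean difference of Hoxc13 was 7.4 to 10.2, and that of Hoxd4 -8.09 to -5.06, with 1 library left out. Without any 1 control, Hoxc13 had an exact permutation p of 0.0571, as another split of the remaining libraries gave a larger difference of means. The within-number comparisons of Hoxc13, Hoxd4 and the cluster A sum were added after seeing the data. For Hoxd4 the difference was -6.40 within 2057 and -12.9 within 3602. The summed Hox count differed by 5.83 between the groups, and by -4.12 to 30.2 over its alternatives. Replicate numbers come from accession order and pair no samples. With 157 to 265 Hox reads per library, the smallest difference in a single Hox gene that could be detected was not determined.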

Other observations

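Few Hox values were single reads. Of the 127 combinations of Hox gene and library with reads, 3 held exactly 1 read. Over the 21 Hox genes below the test's minimum with a mean of at least 1 in either group, this was 3 of 81 combinations (3.70%), beside 616 of 8611 (7.15%) for the 2211 protein-coding genes of the same kind. Of 5 Hox genes with 5 to 12 reads in all, 3 had every read in a single library, beside 38.0% of 3367 genes of the table with that many reads.

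The gene model 5730596B20Rik, which overlaps Hoxa3, had 5.8 and 7.6 normalised counts in mutant replicates 1 and 2 and 0 in the other 6 libraries. Hotairm1, an antisense transcript of cluster A, had 7.2 in control replicate 3 and 7.8, 4.7 and 6.8 in mutant replicates 1 to 3, and Hoxaas2, beside Hoxa3, had 0 to 20.2 in the controls and 2.8 to 13.1 in the mutants. These genes were chosen after their values were seen.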
